A study of Mus musculus with 8 samples.

Results

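Heat shock proteins and their DnaJ cochaperones were examined in adipose tissue macrophages of lean and obese mice. The genes were taken by symbol, as the Hspa, Hspb, Hspd, Hspe, Hsph, Hsp90 and Dnaja, Dnajb and Dnajc genes in the deposited tables. The rule used no measured values, but the members and lists were chosen with earlier results of these data known. The rule gave 72 of 18040 genes, of which 72 were listed for HFD and 68 for ND. They comprised 14 Hspa and Hsph genes, 3 Hsp90 genes, 7 small heat shock proteins (Hspb), Hspd1 and Hspe1, and 46 DnaJ genes. Bulk RNA-seq was made from macrophages of the epididymal white adipose tissue (eWAT) of male wild-type C57BL/6J mice. The mice were on a normal diet (ND) or a high-fat diet (HFD) given for 8 weeks from 6 weeks of age. Adhesion-related macrophages (ARMs) were sorted from the adipocyte layer after vortexing with beads, and stromal vascular macrophages (SMs, labelled NARM) from the stromal vascular fraction. Each of the 4 groups had 2 libraries, and a library held RNA of 6 mice on HFD or of 10 on ND, pooled, so that the spread between libraries, and every p-value here, is that between pools. Library totals ran from 14508824 to 19040133 estimated reads. All of the tissue had been digested with collagenase for 30 min at 37 °C.

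Heat shock proteins hold unfolded proteins and help them to fold. Hsp70 proteins (Hspa) bind short stretches of an unfolded chain and release them under the control of ATP, DnaJ proteins bring the client to Hsp70 and speed up its ATP cycle, and Hsp90 proteins act later, on clients that are nearly folded. Small heat shock proteins (Hspb) hold unfolded proteins without ATP. Some members are made at all times and others are induced by the transcription factor HSF1, which binds heat shock elements, when unfolded proteins build up in the cytosol. In the endoplasmic reticulum (ER) the unfolded protein response acts on a separate set of chaperones through ER stress elements.

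Promoter letters of 5 members are shown so that such elements can be seen: 3 heat-inducible members, the mitochondrial Hspe1 and the ER member Hspa5. The 250 bases before an annotated start were read from RefSeq (GRCm38.p6) for 57 of the 72 members. The heat shock element was searched as GAANNTTC or TTCNNGAA, forms that are their own reverse complements and can overlap. One of these forms was found for 13 of the 57 members, against 14.5% of all 27025 genes. It was found for 6 of 7 heat-inducible cytosolic members (Dnaja1, Dnajb4, Hspa1a, Hspa1b, Hspb1 and Hsph1), 1 of 10 constitutive cytosolic members, 1 of 9 ER members and 2 of 5 mitochondrial members. The longer form with 3 units, GAANNTTC followed by NNGAA or TTCNNGAA followed by NNTTC, was found for 0 of 7 heat-inducible members, for Dnajb6 of the constitutive list and for the mitochondrial Hspd1 and Hspe1, against 0.514% of all genes. The ER stress element, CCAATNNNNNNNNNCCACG on either strand, was found for 3 of 9 ER members (Dnajc3, Hsp90b1 and Hspa5) and for no other member, against 0.13% of all genes. Capitals mark the heat shock element in the first 4 sequences and the ER stress element in the last.
Hspa1a chr17:34972157-34972406 (minus strand): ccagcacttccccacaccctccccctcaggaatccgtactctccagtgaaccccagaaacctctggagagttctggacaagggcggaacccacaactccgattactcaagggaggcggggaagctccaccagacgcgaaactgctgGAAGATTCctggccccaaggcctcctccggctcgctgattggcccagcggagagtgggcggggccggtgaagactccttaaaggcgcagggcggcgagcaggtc
Hspa1b chr17:34959239-34959488 (minus strand): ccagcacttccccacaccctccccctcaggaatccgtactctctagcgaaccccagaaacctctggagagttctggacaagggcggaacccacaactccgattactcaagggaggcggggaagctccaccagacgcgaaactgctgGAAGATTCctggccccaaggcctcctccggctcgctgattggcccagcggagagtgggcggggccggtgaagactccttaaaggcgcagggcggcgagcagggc
Hsph1 chr5:149636337-149636586 (minus strand): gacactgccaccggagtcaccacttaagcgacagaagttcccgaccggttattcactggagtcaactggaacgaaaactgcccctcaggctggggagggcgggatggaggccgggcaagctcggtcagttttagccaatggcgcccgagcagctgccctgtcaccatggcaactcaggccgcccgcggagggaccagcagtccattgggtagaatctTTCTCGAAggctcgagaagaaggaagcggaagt
Hspe1 chr1:55087898-55088147 (plus strand): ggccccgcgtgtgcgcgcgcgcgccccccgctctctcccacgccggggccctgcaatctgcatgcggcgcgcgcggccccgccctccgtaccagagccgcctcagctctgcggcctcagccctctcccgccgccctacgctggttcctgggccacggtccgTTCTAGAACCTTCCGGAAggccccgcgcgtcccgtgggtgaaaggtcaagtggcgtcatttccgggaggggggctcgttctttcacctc
Hspa5 chr2:34771840-34772089 (plus strand): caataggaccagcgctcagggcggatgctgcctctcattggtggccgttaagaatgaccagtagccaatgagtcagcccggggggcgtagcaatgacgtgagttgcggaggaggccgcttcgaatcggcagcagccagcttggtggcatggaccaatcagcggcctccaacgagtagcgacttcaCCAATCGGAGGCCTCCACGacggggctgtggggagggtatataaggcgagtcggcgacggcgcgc
The windows of Hspa1a and Hspa1b were identical at 247 of 250 positions. In the Hspe1 window 3 matches overlapped to make 1 run of 18 bases. That window lies within the neighbouring gene Hspd1 (chr1:55077833-55088243). Whether the matches of Hspd1 and Hspe1 share letters was not tested, so they may not count as separate. The Hsph1 window precedes a start that lies inside the gene, which extends to position 149636498. Part of that window, with its marked element, is therefore within the gene. A match describes the letters of the window and was not tested as a binding site.

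Hspa8, the constitutive cytosolic Hsp70, was the most abundant member, at 1493 and 1446 FPKM (fragments scaled to transcript length and library size) in ND SMs, 1377 and 1392 in ND ARMs, 1158 and 1195 in HFD SMs, and 1163 and 1135 in HFD ARMs. It was followed by Hspa5, the ER Hsp70, at 606 to 694 FPKM over the 8 libraries, Hsp90ab1, the constitutive cytosolic Hsp90, at 488 to 544, Hsp90b1, the ER Hsp90, at 239 to 308, and Hsp90aa1, the inducible cytosolic Hsp90, at 153 to 254. These 5 genes made up 68.1% to 69.8% of the summed FPKM of the members in each library. Mean levels were over 100 FPKM for 7 members, 10 to 100 FPKM for 31, 1 to 10 FPKM for 22 and under 1 FPKM for 12. Hspa1a and Hspa1b, the inducible Hsp70 genes, were at 69.1 to 156 and 20.4 to 46.2 FPKM over the 8 libraries. Dnajb1, the DnaJ partner of inducible Hsp70, was at 36.1 to 57.3 FPKM, and Hsph1, an inducible nucleotide exchange factor of Hsp70, at 9.64 to 12.02 FPKM.

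**Figure D1:**
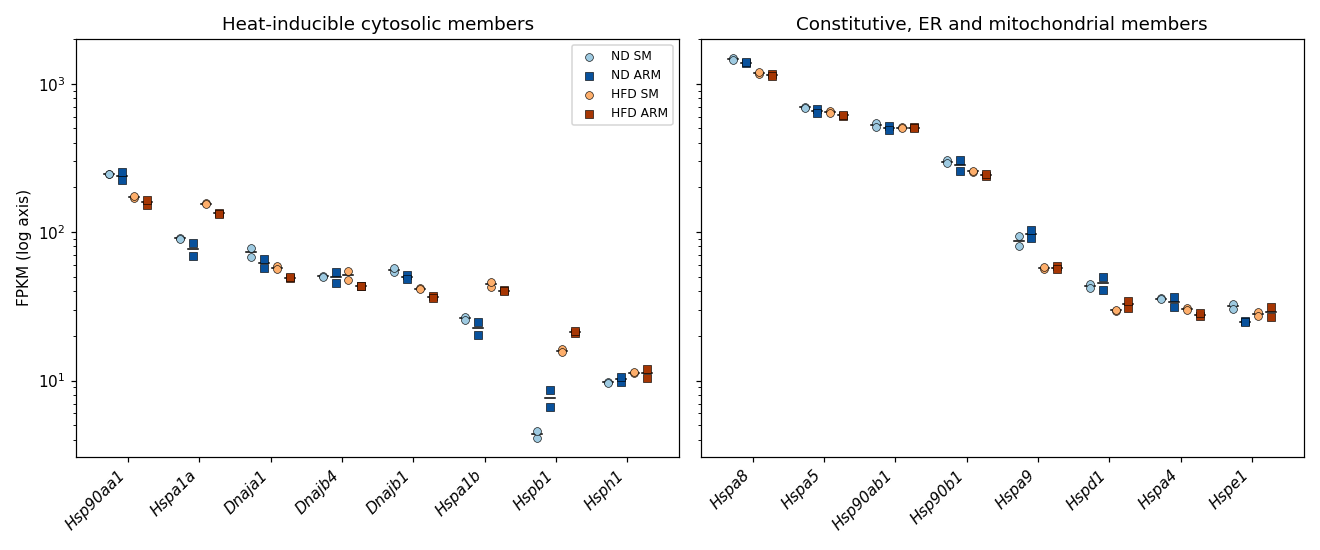
FPKM (log axis) of 8 heat-inducible cytosolic members (left) and 8 constitutive, ER and mitochondrial members (right); each point is a library, the short line is the mean of the 2 libraries of a group, circles are SMs and squares ARMs. Hspa8 was highest in every library, Hspa1a and Hspa1b were higher in the HFD libraries than in the ND libraries, and Hsp90aa1 and Hspa9 were lower.

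In HFD mice, 2 members rose in ARMs against SMs and none fell. The members were fitted with all 13337 genes tested, with the quasi-likelihood test of edgeR, and p-values were adjusted over all of them by Benjamini and Hochberg. A call needed more than a 1.5-fold difference together with an adjusted p below 0.05. Of the 72 members, 64 had enough counts to be tested, and the other 8 (Dnajb3, Dnajb8, Dnajc5b, Dnajc5g, Dnajc6, Dnajc19-ps, Dnajc22 and Hspb2) lay between 0 and 0.66 FPKM. The 2 called higher stand against 4.46% of all genes tested called higher, and the 0 called lower against 0.292%. Without the fold limit, 8 of 64 members had an adjusted p under 0.05, against 9.55% of all genes, and 19 had an unadjusted p under 0.05, against 23.2%. The median log2 fold change of the members was -0.03, beside -0.01 over all genes. On normalized counts, both ARM libraries lay above both SM libraries for 14 of 64 members and below them for 24. Over all 13337 genes these counts were 3501 and 3527. With 2 libraries per group such separation is common, so it is given below as a description only.

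Both members that rose in HFD were scarce. Hspa12b, a distant Hsp70 relative known from endothelial cells (chr2:131127412-131145985 in GRCm38), had 41 and 33 estimated reads in HFD SMs and 77 and 67 in HFD ARMs. Its ARM libraries were both above its SM libraries, with a log2 fold change of 0.98 (SE 0.23, edgeR adjusted p = 0.0261). In ND the groups overlapped, at 22 and 32 reads in SMs and 13 and 29 in ARMs (log2 fold change -0.34, SE 0.43, edgeR adjusted p = 0.809). Hspb7, a small heat shock protein known from heart and skeletal muscle (chr4:141420779-141425310), had 15.8 and 20.9 reads in HFD SMs and 37.8 and 46.6 in HFD ARMs, with a log2 fold change of 1.22 (SE 0.31, edgeR adjusted p = 0.0341). Both calls were lost without HFD ARM replicate 1 and without HFD ARM replicate 2. Hspa12b was also lost without HFD SM replicate 2 and Hspb7 without HFD SM replicate 1, and both were lost with DESeq2, without the filter on low counts and in 1 fit of all 8 libraries. In bulk samples like these, fewer cells of a type and less RNA per cell cannot be told apart.

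In ND mice, 1 member rose and none fell, of 63 tested among 12441 genes, since Dnajb7 was not tested there either. The call stands against 3.55% of all genes called higher, and the 0 called lower against 0.129%. It was Hspb8, a small heat shock protein that works with Bag3 in the removal of misfolded proteins (chr5:116408491-116422864). Hspb8 had 40 and 37 reads in ND SMs and 88 and 105 in ND ARMs, with no overlap, and a log2 fold change of 1.33 (SE 0.26, edgeR adjusted p = 0.00625). The call was lost without ND ARM replicate 2. In HFD it had 93 and 52 reads in SMs and 107 and 131 in ARMs, with a log2 fold change of 0.74 (SE 0.25) that did not pass the test (edgeR adjusted p = 0.0942). Without HFD SM replicate 1 it was 1.22 and passed (edgeR adjusted p = 0.0024, lowest of a range up to 0.477 over its settings), and without HFD SM replicate 2 it was 0.38. Without the fold limit, 1 of 63 members had an adjusted p under 0.05, against 4.73% of all genes, and 7 had an unadjusted p under 0.05, against 14.9%. The members' median log2 fold change was -0.07, beside -0.02 over all genes. Both ARM libraries lay above both SM libraries for 8 of 63 members and below them for 19. Over all 12441 genes these counts were 2636 and 2837.

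**Figure D2:**
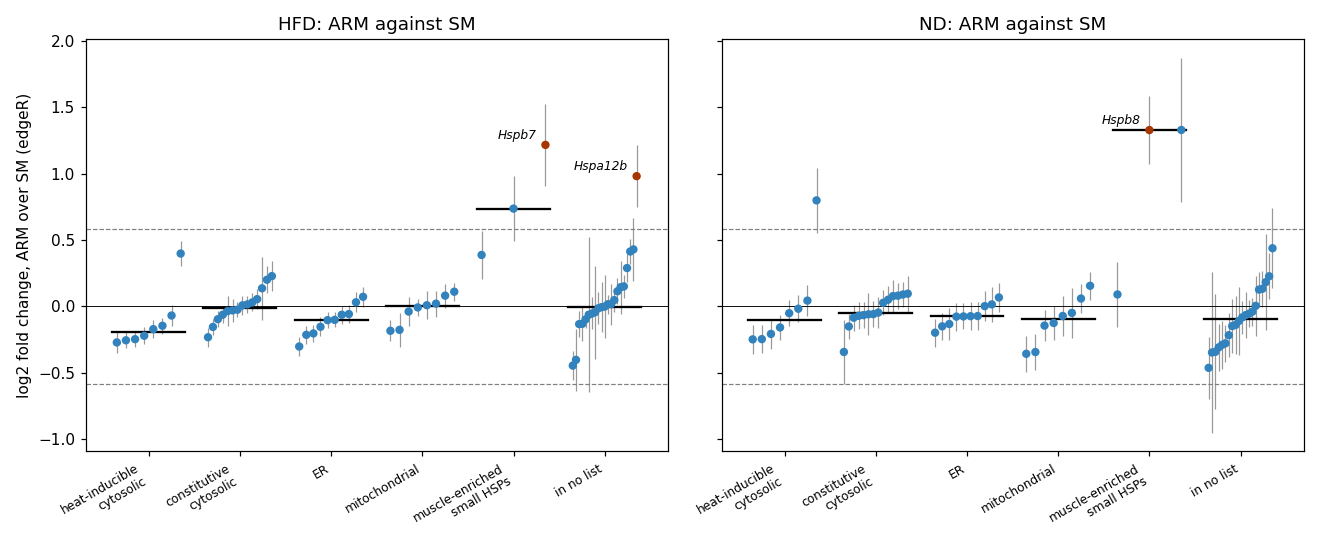
Log2 fold change of ARMs over SMs (edgeR) for each tested member in HFD (left) and ND (right), grouped by role; bars are standard errors, black lines are group medians, dashed lines mark a fold change of 1.5, and red points passed the test. Hspb7 and Hspa12b in HFD and Hspb8 in ND were called, and the heat-inducible group had medians of -0.20 and -0.10.

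The heat-inducible cytosolic list held 8 genes, all of them tested, of which 0 rose and 0 fell in either diet. Its median log2 fold change was -0.20 in HFD and -0.10 in ND, and 7 of 8 genes in HFD and 6 of 8 in ND had values below 0, beside 51.5% and 53.5% of all genes. Hspa1a had 134 and 133 FPKM in HFD ARMs and 156 and 155 in HFD SMs, with ARMs below SMs, and its log2 fold change was -0.25 (SE 0.06, edgeR adjusted p = 0.0268), short of the fold limit. In ND the same gene had 69.1 and 83.8 FPKM in ARMs and 91.7 and 90.2 in SMs, with a log2 fold change of -0.25 (SE 0.11, edgeR adjusted p = 0.277). Hspa1b gave -0.17 in HFD and -0.21 in ND, neither past an adjusted p of 0.05. In GENCODE vM21 transcripts, 58.8% of the 50-base stretches of Hspa1a were also present in Hspa1b, so the division of reads between these genes is uncertain. Fitted as 1 gene they gave -0.23 in HFD (edgeR adjusted p = 0.0354, with adjusted p from 0.00469 to 0.27 for Hspa1a over its settings) and -0.22 in ND.

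The 3 DnaJ genes of the list also had values below 0. Dnaja1, an Hsp40 cochaperone of cytosolic Hsp70, had 48.8 and 49.5 FPKM in HFD ARMs against 58.7 and 56.3 in HFD SMs (log2 fold change -0.26, SE 0.06, edgeR adjusted p = 0.0277), and gave -0.25 in ND. Dnajb1 gave -0.22 in HFD and Dnajb4 -0.27, with edgeR adjusted p = 0.0531 and 0.0513. In ND, Dnajb1 gave -0.16, and Dnajb4 gave -0.02 with overlapping libraries, a value that became 0.092 without ND ARM replicate 2. Hsp90aa1 gave -0.15 in HFD and -0.05 in ND, and Hsph1 gave -0.07 and 0.04, with Hsph1 libraries overlapping in both diets. Hspb1, the small heat shock protein of the list, was on the other side of 0. It had 16.2 and 15.5 FPKM in HFD SMs and 20.9 and 21.6 in HFD ARMs (log2 fold change 0.40, SE 0.09, edgeR adjusted p = 0.024). It had 4.1 and 4.6 FPKM in ND SMs and 6.62 and 8.62 in ND ARMs (0.80, SE 0.25, edgeR adjusted p = 0.0855), without overlap in either diet. With a library left out, the ND value of Hspb1 ran from 0.59 to 0.99.

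The immediate-early genes, a list set beside the members because they respond within minutes to handling and stimulation of cells, had values below 0 for 10 of 13 genes in each diet. Those above 0 included Jund and Zfp36 in both diets. None of the 13 passed the fold limit, but 6 in HFD and 3 in ND had an adjusted p under 0.05, all lower in ARMs, beside 3.02% and 0.458% of all genes. Fos had a log2 fold change of -0.36 in HFD and -0.57 in ND, and Jun had -0.41 and -0.49. The part of cell handling in the values of the heat-inducible list was not tested, and the different isolation of ARMs and SMs cannot be told apart from the cell type.

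The constitutive cytosolic list held 14 genes, with 0 called in either diet and medians of -0.01 in HFD and -0.05 in ND. Its name is used broadly, since the list also held Dnajc8, Dnajc9, Dnajc13 and Dnajc17, whose place in the cell was not tested. Hspa8 gave -0.06 (SE 0.06) in HFD and -0.08 (SE 0.10) in ND. Hsp90ab1 gave -0.02 and -0.07, and Hspa4, a nucleotide exchange factor of Hsp70, gave -0.15 and -0.07. The 10 ER members had 0 calls and medians of -0.10 and -0.07. Hspa5 gave -0.10 and -0.08, and Hsp90b1 -0.10 and -0.07. Dnajc10, an ER reductase with a DnaJ domain, had an adjusted p under 0.05 in HFD without reaching the fold limit, at 10.5 and 11.5 FPKM in ARMs and 12.8 and 13.8 in SMs (-0.30, SE 0.07, edgeR adjusted p = 0.0302). The 8 mitochondrial members had 0 calls and medians of 0.00 and -0.10. Hspa9, the mitochondrial Hsp70, gave -0.01 and 0.16, and Hspd1, the mitochondrial chaperonin, 0.11 and 0.06. Its partner Hspe1 gave 0.02 in HFD and -0.34 in ND.

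The list of small heat shock proteins known from muscle had 4 genes in the tables, of which 3 could be tested, Hspb6, Hspb7 and Hspb8. All had values above 0 in both diets, with medians of 0.74 in HFD and 1.33 in ND. Hspb6 had 3.68 and 4.36 FPKM in HFD SMs and 4.63 and 6.11 in HFD ARMs (0.39, SE 0.18, edgeR adjusted p = 0.235), and overlapped in ND. Hspb7 in ND had 3 and 10 reads in SMs and 18 and 15 in ARMs (1.33, SE 0.54, edgeR adjusted p = 0.241), and gave 0.75 without ND SM replicate 1 and 2.37 without ND SM replicate 2. Hspb2 was at 0 to 0.39 FPKM. The 28 members in no list, mostly DnaJ genes, had 1 call in HFD, Hspa12b, and 0 in ND, with medians of -0.0015 and -0.10. Among their larger values, Dnaja4 gave 0.43 (SE 0.24) in HFD, Dnajc28 -0.46 (SE 0.23) in ND and Hspa1l, a relative of Hspa1a known from testis, 0.44 (SE 0.30) in ND, and none of these passed.

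**Figure D3:**
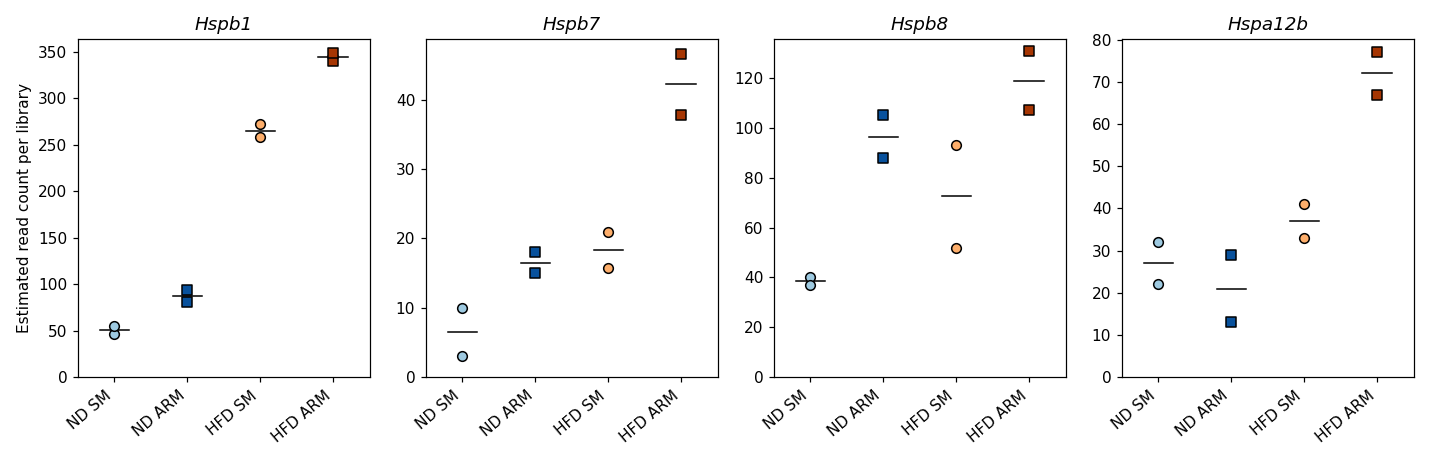
Estimated read count per library of Hspb1, Hspb7, Hspb8 and Hspa12b in the 4 groups; each point is a library and the line is the mean of 2. ARM libraries were above SM libraries in both diets for Hspb1, Hspb7 and Hspb8, and for Hspa12b in HFD, while its ND groups overlapped. On normalized counts the same held for 3501 of 13337 genes in HFD and 2636 of 12441 in ND.

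Several marker lists of other cell types were higher in the ARM libraries, and these values stand beside the members that rose. Of 10 endothelial markers, 9 rose in HFD ARMs and 1 in ND ARMs, and their summed FPKM was 13.4 to 19.6 in HFD SMs, 44.9 to 46.8 in HFD ARMs, 9.68 to 11.8 in ND SMs and 12.3 to 24.3 in ND ARMs. Of 9 pericyte and smooth muscle markers, 3 rose in each diet, and their sum was 13.3 to 20.3 FPKM in HFD SMs, 29.3 to 32.4 in HFD ARMs, 7.36 to 8.72 in ND SMs and 10.1 to 14.9 in ND ARMs. Of 10 adipocyte markers, 9 rose in HFD and 8 in ND, with sums of 127 to 165 FPKM in HFD SMs, 455 to 519 in HFD ARMs, 125 to 173 in ND SMs and 227 to 349 in ND ARMs. Of 9 fibroblast markers, 5 rose in HFD and 8 in ND, with sums of 118 to 130 FPKM in HFD SMs, 174 to 214 in HFD ARMs, 81.9 to 111 in ND SMs and 228 to 331 in ND ARMs. Of 7 mesothelial markers, 0 rose in HFD and 6 in ND. Of 7 lymphatic markers, 3 rose in HFD and 4 in ND. Lyve1, the most abundant of them, went the other way in HFD (-0.58, SE 0.08, edgeR adjusted p = 0.00134), short of the fold limit, and gave -0.18 in ND. Prox1 gave -0.17 in HFD and 0.07 in ND. The lymphatic sum, most of it Lyve1, was 616 to 652 FPKM in HFD SMs and 410 to 468 in HFD ARMs. Lyve1 alone was 609 to 647 FPKM in HFD SMs and 399 to 459 in HFD ARMs. In ND the sum was 632 to 738 FPKM in SMs and 585 to 640 in ARMs, with Lyve1 at 628 to 735 and 574 to 630. Of the 7 lymphatic markers, 5 had values above 0 in HFD and 6 in ND, so the sum describes Lyve1 rather than the list. Of the neutrophil and mast cell markers, 0 of 5 tested were called in HFD, while all 6 tested in ND had values below 0, 1 of them called lower (S100a9), with sums of 48.0 to 61.6 FPKM in ND SMs and 11.5 to 33.9 in ND ARMs. Of the B cell markers, 0 of 3 tested were called in either diet. Of the T and NK cell markers, 1 of 3 tested rose in HFD, Cd4 (0.88, SE 0.15), and 0 of 2 in ND. Klrb1c gave 0.86 and Cd8a -0.23 in HFD without passing, and Cd3e, Cd3d and Cd3g, at 0 to 0.56 FPKM, were not tested. No defining marker of the endothelial, adipocyte or fibroblast lists was at 0 in any library. Of 11 macrophage markers none was called, and their sum was 15189 to 18301 FPKM over all libraries. Their median log2 fold change was -0.11 in HFD and -0.04 in ND, with 8 of 11 values below 0 in each diet. Without overlap between the groups, 7 markers were lower in HFD ARMs and 2 higher, against 2 and 1 in ND. An unadjusted edgeR p under 0.05, in either direction, was found for 5 markers in HFD and 1 in ND. The part of other cells in the values of Hspa12b, Hspb7, Hspb8 and Hspb1 was not tested.

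Whether the ARM to SM difference itself differed by diet was tested in 1 fit of all 8 libraries, and 0 of 64 members passed, beside 0.165% of 13358 genes. At an unadjusted p under 0.05 there were 3 members with edgeR, beside 7.61% of genes, and 0 with DESeq2. The smallest p was that of Hspa12b, whose change was larger in HFD by 1.31 on the log2 scale (SE 0.51, edgeR adjusted p = 0.515). It was followed by Hspb11, a subunit of intraflagellar transport despite its name, at 0.54 (SE 0.21, edgeR adjusted p = 0.529), and by Hspe1 at 0.35, Dnajb4 at -0.27 and Hspa12a, another distant Hsp70 relative, at -0.39. Hspa12a itself had 2.31 and 2.34 FPKM in HFD ARMs against 2.91 and 3.41 in HFD SMs (-0.45, SE 0.11, edgeR adjusted p = 0.0298), and overlapped in ND. Hspb11 gave 0.41 within HFD (SE 0.10, edgeR adjusted p = 0.0231), short of the fold limit, and overlapped in ND. Its gene length implied by count and FPKM was 2.22 times as long in the HFD table as in the ND table. For Hspb11, a difference between diets therefore cannot be told apart from one in how the tables counted it.

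HFD and ND levels are given as values only, because the HFD table and the ND table were not made alike, and diet and table cannot be told apart. In FPKM, both HFD libraries were above both ND libraries for 16 of 64 members in ARMs, beside 28.5% of genes, and for 12 in SMs, beside 27.4%. They were below for 34 members in ARMs, beside 43.2%, and for 36 in SMs, beside 46.4%. Counts were also compared after TMM normalization within each table, which gives no factor shared between the diets. On these counts the members above were 22 in ARMs and 21 in SMs, beside 35.3% and 34.9% of genes. Those below were 24 and 30, beside 36.9% in each. In both cell types 9 members were above in HFD, beside 20.5% of genes, among them Hspa1a, Hspa1b, Hspb1, Hspb6 and Hspb7, and 30 were below, beside 35.9%. Of the heat-inducible list 3 genes were above and 3 below in both cell types, while of the constitutive cytosolic list 0 were above and 10 below.

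Single members lay on either side. Hspa1a was 1.75 times as high in HFD as in ND ARMs and 1.71 times as high in SMs, and Hspb1 2.79 and 3.64 times as high. The gene length implied by count and FPKM was 1.06 times as long in the HFD table for Hspa1a, and 1.17 times for Hspb1. Dnajb13, a DnaJ protein of sperm flagella and cilia, had 3.62 to 4.29 FPKM in ND and 16.4 to 20.1 FPKM in HFD, with an implied length 1.24 times as long in the HFD table. Hsp90aa1 was 1.51 times as high in ND as in HFD ARMs and 1.44 times in SMs, and Hspa9 1.69 and 1.54 times.

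Inducible members were also set against constitutive relatives as a ratio within each library, which takes out the library's scaling but not the differences between the tables in how single genes were counted, so that diet and table cannot be told apart here either. Hspa1a was 5.01% to 6.24% of the FPKM of Hspa8 in the ND libraries and 11.5% to 13.5% in the HFD libraries, with no overlap between diets. Within HFD it was 11.5% and 11.7% in ARMs and 13.5% and 12.98% in SMs, and within ND 5.01% and 6.02% in ARMs and 6.14% and 6.24% in SMs, so that ARMs were the lower in both. Hsp90aa1 went the other way between diets, at 45.5% to 49.3% of Hsp90ab1 in ND and 30.1% to 34.8% in HFD, and its ARM and SM libraries overlapped in ND. Dnajb1 was 72.9% and 76.3% of Dnajb6 in ND ARMs, 87.2% and 88.1% in ND SMs, 61.5% and 58.7% in HFD ARMs and 65.4% in both HFD SM libraries. Hsph1 was 26.4% to 34.2% of Hspa4 in ND and 36.5% to 42.1% in HFD. Dnaja1 overlapped between diets, at 130.2% to 179% of Dnaja2 in ND and 137% to 174% in HFD. Hspa1b was 1.48% to 1.81% of Hspa8 in ND and 3.49% to 3.87% in HFD. Hspa1a took 76.8% to 78.4% of the summed FPKM of Hspa1a and Hspa1b in every library.

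**Figure D4:**
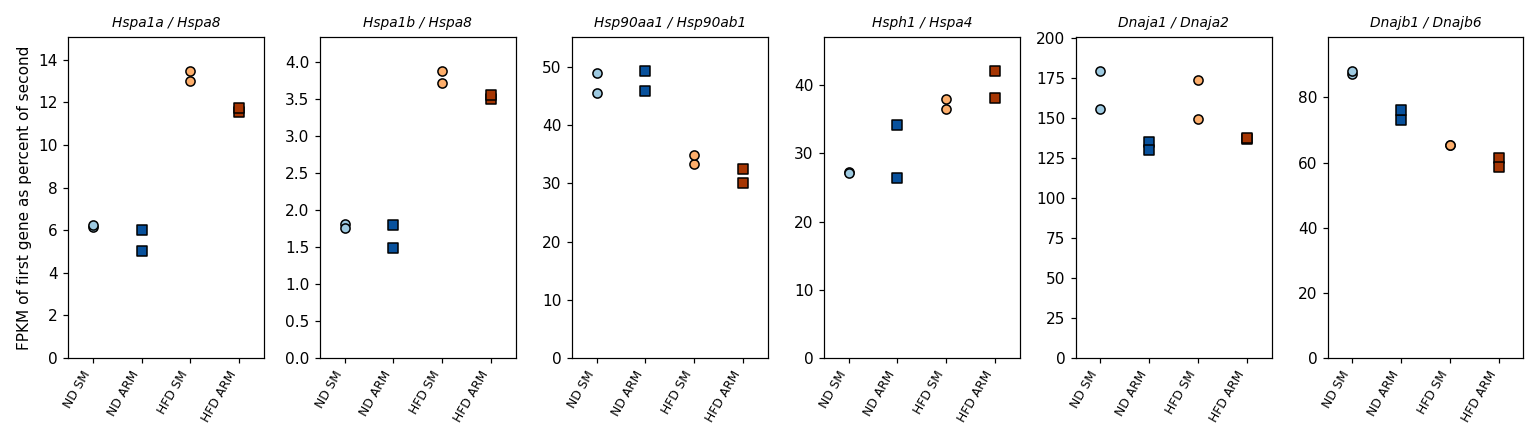
FPKM of an inducible gene as a percent of that of its constitutive relative in the same library, for 6 pairs; each point is a library, circles are SMs and squares ARMs. Hspa1a over Hspa8 was 5.01% to 6.24% in ND and 11.5% to 13.5% in HFD, and Hsp90aa1 over Hsp90ab1 was lower in HFD.

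Other genes of the heat shock response gave 1 call in each diet. Of 16 HSF regulators and other heat shock targets, Serpinh1, the collagen chaperone HSP47, rose in ARMs in both diets, by a log2 fold change of 1.05 (SE 0.09) in HFD and 1.82 (SE 0.20) in ND, while collagen genes of the fibroblast list rose too. Hsf1, the master factor of the response, had 10.3 to 20.6 FPKM over the libraries and gave 0.08 and 0.04. Of 19 partners of Hsp70 and Hsp90, 8 subunits of the CCT chaperonin and 15 genes of the unfolded protein response, 0 were called in either diet, with medians of -0.03, 0.03 and -0.08 in HFD and -0.05, -0.04 and -0.06 in ND.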

How the data were processed

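RNA-seq libraries of ARMs and SMs were compared within each diet. The authors deposited, in 1 table per diet, an estimated count for each gene and library, beside FPKM and TPM. Per the labels the build was mm10, and the aligner, counter and annotation are not given in the sources used here. Counts summed to 14508824 to 19040133 per library. They were rounded and fitted with edgeR 4.0.16 in R 4.3.3 (TMM factors 0.989 to 1.02, filterByExpr, quasi-likelihood test). Calls needed more than a 1.5-fold difference and an adjusted p below 0.05. FPKM was used for levels and TPM as an alternative. Other alternatives were DESeq2 1.42.0, limma 3.58.1 on log2(FPKM + 1) and log2(FPKM + 0.1), other normalizations and filters, the replicate number as a block, and each library left out. The tables differed in how they were made: 32.3% to 32.9% of HFD counts and 8.55% to 9.36% of ND counts were not whole. Replicates of a group differed by more than sampling noise (mean chi-square per gene 4.21 to 10.1). Named genes were every called member, the heat-inducible list, Hspa8, Hsp90ab1, Hspa4, Hspa5, Hsp90b1, Hspa9, Hspd1 and Hspe1, the 5 most abundant members, the 5 largest fold changes per diet and the 5 smallest p for the difference between diets; Dnajb13, Dnajc10, Hspb6 and genes of other lists were named after their values were seen. The members and lists were chosen with earlier results of these data known. Columns of the authors' means were not used. The pipeline was tested on simulated data. Plots came from matplotlib 3.10.9 (Python 3.11.15).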

Additional observations from a re-analysis of the deposited data

Results flagged for a closer look

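Dnaja3, a mitochondrial DnaJ protein, had both ARM libraries above both SM libraries in HFD (6.78 and 7.18 against 6.64 and 6.33 FPKM) and below them in ND (8.15 and 8.77 against 9.15 and 9.32 FPKM), which is what called for a closer look. Its log2 fold change was 0.08 (SE 0.09) in HFD and -0.12 (SE 0.13) in ND. The difference between diets was 0.19 (SE 0.14), which did not pass the test (edgeR adjusted p = 0.866).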

How the results depend on the processing

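Members called higher in HFD numbered 2. They numbered 3 under the threshold of the methods section (Hspa12b, Hspb7 and Hspb8), 0 without the filter on low counts, with DESeq2, with limma on log2(FPKM + 1) with and without its filter and in the fit of all 8 libraries, 1 with limma on log2(FPKM + 0.1), and 0 to 2 with a library left out. Members called higher in ND numbered 1. They numbered 3 under the threshold of the methods section (Hspb1, Hspb7 and Hspb8), 2 without the filter, with filtered limma at either pseudocount and in the fit of all 8 libraries, 0 with limma on log2(FPKM + 1) without the filter, and 0 to 2 with a library left out. With the replicate number as a block the ND count was 2 (Hspb1 and Hspb8) and the HFD count 2. Over the genes tested, the deviations of ARM and SM replicate 1 from their group means correlated at 0.02 in HFD and 0.28 in ND. With 2 replicates per group this cannot show whether libraries with the same number belong together. The main fit used no pairing. No member was called lower under any of these settings, and 0 passed the difference between diets. The cause of these changes was not tested. Members above in HFD SMs numbered 21 on counts TMM-normalized within each table, beside 34.9% of genes, against 12 on FPKM, beside 27.4%. Signs of small values reversed in HFD for Hsp90ab1 (0.0039 with library totals and 0.0035 with limma in its 3 forms), Hspa9 (0.0206 with library totals, 0.0026 with at least 10 counts in every library, 0.0194 with limma on log2(FPKM + 1) and 0.0197 on log2(FPKM + 0.1)) and Hspa1l (0.00073 with DESeq2 size factors, 0.0262 with library totals, 0.0086 with at least 10 counts, 0.0168 with limma on log2(FPKM + 1) and 0.0256 on log2(FPKM + 0.1)). With a library left out, values in HFD ran from -0.24 to 0.21 for Hspa1l, -0.060 to 0.047 for Hspa9, -0.085 to 0.12 for Hspe1 and -0.15 to 0.014 for Hsph1, and in ND from -0.14 to 0.092 for Dnajb4, -0.14 to 0.029 for Hsp90aa1, -0.20 to 0.039 for Hsp90b1, -0.25 to 0.14 for Hspa12a, -1.14 to 0.19 for Hspa12b, -0.19 to 0.035 for Hspa4, -0.31 to 0.055 for Hspb11, -0.081 to 0.18 for Hspd1 and -0.046 to 0.13 for Hsph1. The heat-inducible median stayed between -0.22 and -0.16 in HFD and between -0.13 and -0.08 in ND over 15 settings. Hspb7 did not pass the FPKM filter of limma and has no value there. Low counts of Hspb7 and Hspa12b limit their precision.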
